A study of Mus musculus with 25 samples.

Results

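The 9 genes described here encode thioredoxin (Txn1), cytosolic thioredoxin reductase (Txnrd1), sulfiredoxin (Srxn1) and the peroxiredoxins Prdx1 to Prdx6. They were chosen by symbol, and every probe set that the platform annotation assigns to one of them was read on every array. Of the 9 genes, 6 had at least 1 probe set that names no other gene (Txn1, Txnrd1, Srxn1, Prdx2, Prdx3 and Prdx4, with 16 probe sets), among 18193 genes measured in that way. Prdx1 was represented only by 5 probe sets that the annotation also assigns to the pseudogene Gm21399, and their values are given under both names. For Prdx5 and Prdx6 the annotation table used here names no probe set, so both have no value. In all, 21 of the 45037 probe sets tested belong to the members.

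The cells were RAW 264.7, a mouse macrophage line, untreated (0 mM, 4 arrays) or given hypochlorous acid (HOCl) in serum-containing medium for 6 h, at low doses of 0.14 and 0.35 mM, at middle doses of 0.7 and 1.4 mM or at high doses of 2.1, 2.8 and 3.5 mM (3 arrays each). HOCl is the oxidant that myeloperoxidase of phagocytes makes from hydrogen peroxide and chloride. No group carried a genetic change, and the dose was the only difference between groups that the labels give. The design text calls the replicates biological without saying what separated them, so p-values measure the spread between these 25 arrays. In such bulk RNA fewer cells of a type and less RNA per cell cannot be told apart.

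Peroxiredoxins reduce peroxides with a cysteine that is oxidised in the process, and thioredoxin reduces that cysteine again. Thioredoxin reductase, a selenoprotein, recharges thioredoxin with electrons from NADPH. When excess peroxide pushes the peroxiredoxin cysteine to sulfinic acid, sulfiredoxin repairs it, and Srxn1, Txnrd1 and Prdx1 are known targets of the transcription factor NRF2, which binds antioxidant response elements.

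For all 9 members, the 300 bases around the annotated starts (250 before and 50 from the start on, RefSeq, build GRCm38.p6) were looked up. They were searched for the antioxidant response element core TGACNNNGC on both strands. The letters were present in 12.39% of all 32851 windows of this length. Of the 9 members 8 had a window in the table, 10 windows in all, and 3 windows of 3 genes held the letters, all on the strand opposite to the gene. The windows are printed in the direction of the gene, with the matching letters in capitals, so the core reads as its reverse complement.
Srxn1, chr2:152105274-152105573, plus strand: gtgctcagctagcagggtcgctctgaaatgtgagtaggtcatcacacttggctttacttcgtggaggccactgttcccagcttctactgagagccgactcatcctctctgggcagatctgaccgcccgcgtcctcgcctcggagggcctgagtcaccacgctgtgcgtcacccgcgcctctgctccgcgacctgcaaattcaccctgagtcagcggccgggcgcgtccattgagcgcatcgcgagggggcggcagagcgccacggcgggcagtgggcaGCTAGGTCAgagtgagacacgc
Txnrd1, window 2 of 3, chr10:82858956-82859255, plus strand: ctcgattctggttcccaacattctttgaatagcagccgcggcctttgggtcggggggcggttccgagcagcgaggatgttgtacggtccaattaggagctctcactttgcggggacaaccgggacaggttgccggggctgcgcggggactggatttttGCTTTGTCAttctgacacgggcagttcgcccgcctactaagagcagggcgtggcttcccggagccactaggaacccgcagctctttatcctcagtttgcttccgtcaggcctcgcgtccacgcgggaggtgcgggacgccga
Prdx1, chr4:116685349-116685648, plus strand: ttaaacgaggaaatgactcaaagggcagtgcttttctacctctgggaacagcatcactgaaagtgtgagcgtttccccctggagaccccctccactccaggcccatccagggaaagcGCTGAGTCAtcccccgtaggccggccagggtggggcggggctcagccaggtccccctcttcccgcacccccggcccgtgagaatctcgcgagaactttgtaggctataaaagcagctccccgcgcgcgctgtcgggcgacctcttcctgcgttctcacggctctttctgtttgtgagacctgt
The match lay at bases 29 to 37 counted from the start of Srxn1 (GCTAGGTCA), and at bases -92 to -84 from that start of Txnrd1 (GCTTTGTCA). In Prdx1 it lay at -133 to -125 (GCTGAGTCA) and overlapped the letters of an AP-1 site, TGANTCA, which 7.808% of all windows hold. For the members AP-1 letters were recorded only where they overlapped a match. The printed windows of Srxn1 and Prdx1 also hold them outside the match, so they do not set Prdx1 apart from Srxn1. The windows of Txn1, Prdx2, Prdx3, Prdx4 and Prdx5 and the other 2 of Txnrd1 did not contain the letters. A match is a description of letters, and binding was not measured here.

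Values are log2 signals with the median of each array at 0, and a difference of 1 corresponds to 2-fold. Within a dose, arrays correlated at Pearson r of 0.953 to 0.997. The first replicate at 0 mM stood apart, with 282 probe sets more than 2 log2 units below the lowest of the other 24 arrays and 0 such probe sets on each of the others. Its Gapdh 3' minus 5' difference was 0.36, against -0.11 to -0.01 on the others. Signals of 8 control probe sets, which read the 5' end of added poly-A transcripts, were low on 11 arrays (all of 0 and 0.14 mM and 2 each of 0.35 and 0.7 mM) and high on 14, with the limit at 1.44. From 1.4 mM up this control level and dose cannot be told apart in a comparison with 0 mM, so results are also given with the level as a term and within 1 level. Only 0.35 and 0.7 mM held arrays of both levels, the third replicate of each being the high one. With the level as a term, values against 0 mM from 1.4 mM up therefore rest on an offset estimated from those doses. Calls kept or lost there cannot settle the part of the level. All 9 macrophage markers looked at, among them Lyz2 and Adgre1, lay above the array median on all arrays. Of the markers of other cells that could be measured, 0 of 2 for B cells, 0 of 3 for neutrophils, 0 of 3 for fibroblasts, 1 of 3 for epithelium (Epcam, mean 1.49) and 2 of 3 for T cells (the highest Cd4, mean 1.14) did so. S100a8, from the neutrophil list, was 4.17 higher at 0.35 mM (limma, adjusted p = 0.014) and 3.70 higher at 2.1 mM (adjusted p = 0.0119). The mean of that list ranged from -0.46 to 1.04 over the doses. Of its genes only S100a8 was looked at by dose, so its rise does not stand for the list. Over all arrays S100a8 had the highest mean of the list (1.45) and Mpo the lowest (-0.66). The part of S100a8 in the results below was not tested.

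Across the doses Srxn1 and Txnrd1 rose with HOCl up to 1.4 or 2.1 mM and were back at or below the untreated level at 3.5 mM, and the 5 probe sets of Prdx1 or Gm21399 also rose to 1.4 or 2.1 mM and lay lower at 3.5 mM, with a change at 2.1 mM of 0.84 to 1.25 on the log2 scale. In Txn1, Prdx2, Prdx3 and Prdx4 the size of the change or the calls depended on single arrays. Some of their calls were lost and others appeared when an array was left out. An F test over the 7 doses (limma, adjusted p under 0.05, which 28% of all genes passed) called 4 of the 6 member genes, namely Srxn1, Txnrd1, Prdx4 and Prdx2.

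**Figure D1:**
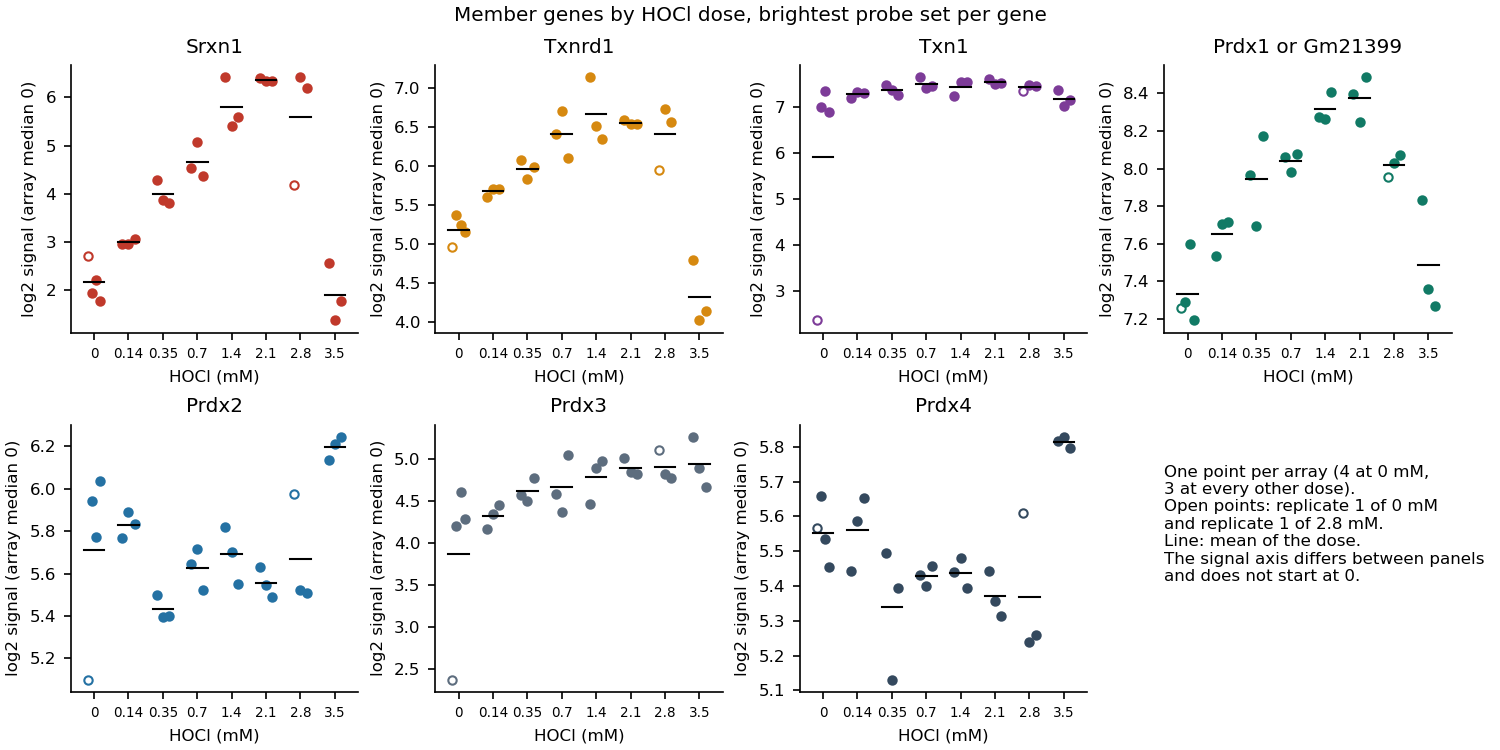
Log2 signal (array median 0) of the brightest probe set of each gene on every array, by HOCl dose in mM, with 1 point per array, a line at the mean of each dose and a separate signal axis in each panel. Srxn1, Txnrd1 and the Prdx1 or Gm21399 probe set climb to 1.4 or 2.1 mM and drop at 3.5 mM. The first 0 mM replicate (open) is far below the others in Txn1 and Prdx3, and the first 2.8 mM replicate (open) lies toward the 3.5 mM arrays in Srxn1, Prdx2 and Prdx4.

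Srxn1, the sulfinic acid reductase of peroxiredoxins, changed most among the members. Its brightest probe set gave 2.70, 1.94, 2.20 and 1.78 at 0 mM, 2.96, 2.96 and 3.06 at 0.14 mM, and 4.28, 3.86 and 3.82 at 0.35 mM. At 0.7 mM the arrays gave 4.54, 5.08 and 4.37, at 1.4 mM 6.42, 5.40 and 5.59, and at 2.1 mM 6.40, 6.34 and 6.34. At 2.8 mM they gave 4.19, 6.42 and 6.20, and at 3.5 mM 2.57, 1.37 and 1.78. Every array from 0.14 to 2.8 mM lay above all 4 untreated arrays, whereas the arrays of 3.5 mM overlapped them. Against 0 mM Srxn1 rose 3.56-fold at 0.35 mM (log2 1.83, SE 0.395, limma, adjusted p = 0.0123), 5.68-fold at 0.7 mM (2.51, adjusted p = 0.0085) and 12.5-fold at 1.4 mM (3.65, adjusted p = 4.88e-05). The rise was 18.5-fold at 2.1 mM (4.21, adjusted p = 8.17e-06) and 10.9-fold at 2.8 mM (3.45, adjusted p = 7.42e-05). The difference of 0.84 at 0.14 mM did not pass (95% interval 0.01 to 1.66, adjusted p = 0.559), nor did the one of -0.25 at 3.5 mM (interval -1.07 to 0.57, adjusted p = 0.731).

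No step between neighbouring doses up to 2.8 mM passed the test for Srxn1, with adjusted p of 0.246 from 0.14 to 0.35 mM, 0.852 to 0.7 mM, 0.547 to 1.4 mM, 1 to 2.1 mM and 0.92 to 2.8 mM. From 2.8 to 3.5 mM Srxn1 fell 13.0-fold (log2 -3.70, SE 0.422, limma, adjusted p = 2.26e-05), and from 1.4 to 3.5 mM 14.9-fold (-3.90, adjusted p = 6.98e-06). Both comparisons hold no untreated array. The first replicate of 2.8 mM, at 4.19, lay about midway between its fellows and the 3.5 mM arrays. Without it the value at 2.8 mM was 4.15 above 0 mM and the last step -4.40 (adjusted p = 7.83e-08). The calls at 1.4, 2.1 and 2.8 mM held without any single array. The one at 0.35 mM was lost without the second replicate of 0.35 mM (1.90, adjusted p = 0.0567), and the one at 0.7 mM without the second of 0.7 mM (2.30, adjusted p = 0.083). With the control level as a term the values against 0 mM were 1.95 at 0.35 mM, 2.62 at 0.7 mM, 4.00 at 1.4 mM, 4.56 at 2.1 mM and 3.80 at 2.8 mM, all called. Within the low level they were 1.92 at 0.35 mM (adjusted p = 0.004) and 2.66 at 0.7 mM (adjusted p = 0.00471), and within the high level the last step passed with an adjusted p of 0.00199.

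All 4 probe sets of Srxn1 were called higher at each dose from 0.35 to 2.8 mM and lower at 3.5 than at 2.8 mM, and none was called at 3.5 mM against 0 mM. At 2.1 mM their values were 4.21, 4.63, 3.84 and 0.85. The smallest came from the dimmest of the 4, with a mean of 1.30 over all arrays against 4.10 for the brightest.

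**Figure D2:**
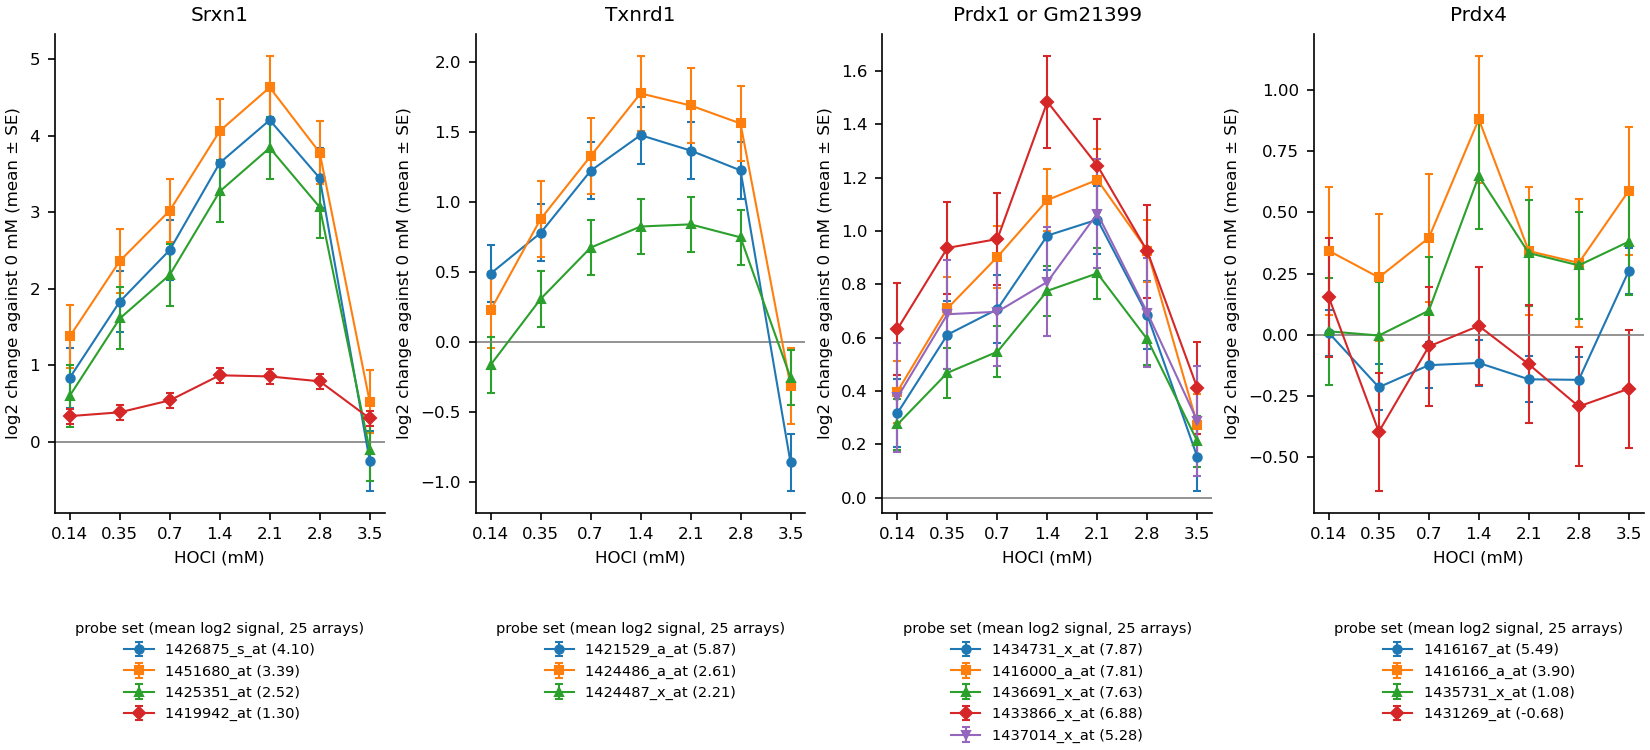
Log2 change against 0 mM (limma estimate, bars of 1 SE) of every probe set of Srxn1, Txnrd1, Prdx1 or Gm21399 and Prdx4 at each HOCl dose in mM, with the mean log2 signal over 25 arrays in the key. The probe sets of the first 3 genes rise up to 1.4 or 2.1 mM, with the dimmest of Srxn1 reaching 0.87 where the others exceed 3, while those of Prdx4 part at 1.4 mM.

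Txnrd1, the reductase of thioredoxin, rose less and fell below the untreated level at the highest dose. Its brightest probe set gave 4.97, 5.37, 5.25 and 5.16 at 0 mM, 5.61, 5.71 and 5.71 at 0.14 mM, and 6.08, 5.83 and 5.99 at 0.35 mM. At 0.7 mM it gave 6.41, 6.71 and 6.11, at 1.4 mM 7.14, 6.51 and 6.35, and at 2.1 mM 6.59, 6.53 and 6.54. At 2.8 mM the arrays gave 5.95, 6.73 and 6.56, and at 3.5 mM 4.80, 4.02 and 4.14. The arrays from 0.14 to 2.8 mM all lay above the untreated ones, and the 3 arrays of 3.5 mM all lay below them. Txnrd1 was 1.72-fold higher at 0.35 mM (log2 0.78, SE 0.204, limma, adjusted p = 0.0285), 2.34-fold at 0.7 mM (1.22, adjusted p = 0.0123) and 2.79-fold at 1.4 mM (1.48, adjusted p = 0.000443). At 2.1 mM it was 2.58-fold higher (1.37, adjusted p = 0.000434) and at 2.8 mM 2.34-fold (1.23, adjusted p = 0.000899). At 3.5 mM it was 1.82-fold lower than at 0 mM (-0.86, adjusted p = 0.0103). The difference of 0.49 at 0.14 mM did not pass (interval 0.06 to 0.91, adjusted p = 0.519).

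Among the steps of Txnrd1 the one from 2.8 to 3.5 mM passed, a 4.26-fold fall (log2 -2.09, SE 0.218, limma, adjusted p = 8.65e-06), as did the difference between 1.4 and 3.5 mM (5.07-fold, -2.34, adjusted p = 1.35e-06). The 5 steps below 2.8 mM had adjusted p from 0.649 to 1. The other pair of probe sets was also called higher at 1.4 mM (1.78 and 0.83), 2.1 mM (1.69 and 0.84) and 2.8 mM (1.56 and 0.75), and lower at 3.5 than at 2.8 mM (log2 -1.88 for the brighter of the pair). They were not called at 0.35 or 0.7 mM. At 3.5 mM against 0 mM they had -0.31 and -0.26 with overlapping arrays, so the fall below the untreated level was called on 1 of 3 probe sets. That call was also lost without the second replicate of 3.5 mM or without the third (adjusted p up to 0.0651).

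The calls of Txnrd1 from 1.4 to 2.8 mM held without any single array. With the control level as a term they did not, although the values did not shrink: 1.69 at 1.4 mM (adjusted p = 0.0603), 1.58 at 2.1 mM (0.063) and 1.44 at 2.8 mM (0.0522), while 3.5 mM had -0.65 (0.22). Within the low level 0.35 mM had 0.77 (adjusted p = 0.0173) and 0.7 mM 1.38 (adjusted p = 0.00743), and within the high level the fall from 2.8 to 3.5 mM passed (adjusted p = 0.00104). The call at 0.35 mM was lost without any of 6 arrays, the first, the second or the fourth of 0 mM or any of 0.35 mM (adjusted p up to 0.0888). The call at 0.7 mM was lost without the fourth of 0 mM or without the first or second of 0.7 mM (up to 0.13).

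Txn1, the thioredoxin that Txnrd1 reduces, was high on 24 arrays and low on 1. The untreated arrays gave 2.37, 7.01, 7.36 and 6.88 with its brighter probe set, and the 21 treated arrays ranged from 7.02 to 7.64. The next lowest of the 25 arrays was at 6.88, and the first untreated replicate raised every estimate against 0 mM to between 1.28 and 1.64 with an SE of 0.706. None was called (limma, lowest adjusted p = 0.132 at 2.1 mM). Without that array the estimates ran from 0.10 at 3.5 mM to 0.46 at 2.1 mM (SE 0.118). The one at 2.1 mM then passed (adjusted p = 0.0158), as did the F test (adjusted p = 0.043). The call at 2.1 mM also appeared without the third untreated replicate, at a value of 2.12 (adjusted p = 0.0498). The dimmer probe set ranged from 1.21 to 1.90 over all 25 arrays and had no call.

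Prdx1, a cytosolic peroxiredoxin, shared all its probe sets with Gm21399. The brightest gave 7.26, 7.29, 7.60 and 7.19 at 0 mM, 7.53, 7.70 and 7.72 at 0.14 mM, and 7.97, 7.69 and 8.17 at 0.35 mM. At 0.7 mM it gave 8.06, 7.98 and 8.08, at 1.4 mM 8.28, 8.26 and 8.41, and at 2.1 mM 8.40, 8.25 and 8.48. At 2.8 mM the signal was 7.96, 8.03 and 8.07, and at 3.5 mM 7.83, 7.36 and 7.27. From 0.35 to 2.8 mM all arrays lay above the untreated ones, and at 0.14 and 3.5 mM the groups overlapped. The probe set was 1.53-fold higher at 0.35 mM (log2 0.61, SE 0.127, limma, adjusted p = 0.0106), 1.63-fold at 0.7 mM (0.71, adjusted p = 0.0242) and 1.98-fold at 1.4 mM (0.98, adjusted p = 0.000255). It was 2.06-fold higher at 2.1 mM (1.04, adjusted p = 8.75e-05), 1.61-fold at 2.8 mM (0.68, adjusted p = 0.00197) and not called at 3.5 mM (0.15, interval -0.11 to 0.42, adjusted p = 0.474). From 2.8 to 3.5 mM it fell by 0.53 (adjusted p = 0.0142) and from 1.4 to 3.5 mM by 0.83 (adjusted p = 0.000372).

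All 5 shared probe sets passed the F test and were called higher at 0.35, 1.4, 2.1 and 2.8 mM, and 4 of 5 at 0.7 mM. Their values at 2.1 mM ran from 0.84 to 1.25. Of the 5, 3 were called lower at 3.5 than at 2.8 mM. For the brightest, the calls at 1.4, 2.1 and 2.8 mM held without any single array, the one at 0.7 mM was lost without any of 6 arrays (the first, the second or the fourth of 0 mM, or any of 0.7 mM, adjusted p up to 0.124), and the last step without any of 4 (the second or the third of 2.8 or of 3.5 mM, up to 0.0998). With the control level as a term 0.35 mM was called (0.54, adjusted p = 0.0253) and 0.7, 1.4, 2.1 and 2.8 mM were not (0.64, 0.78, 0.84 and 0.48, adjusted p = 0.0649, 0.292, 0.109 and 0.229). Within the low level neither 0.35 mM (0.50, adjusted p = 0.0702) nor 0.7 mM (0.69, adjusted p = 0.262) was called. The fall from 2.8 to 3.5 mM held within the high level.

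**Figure D3:**
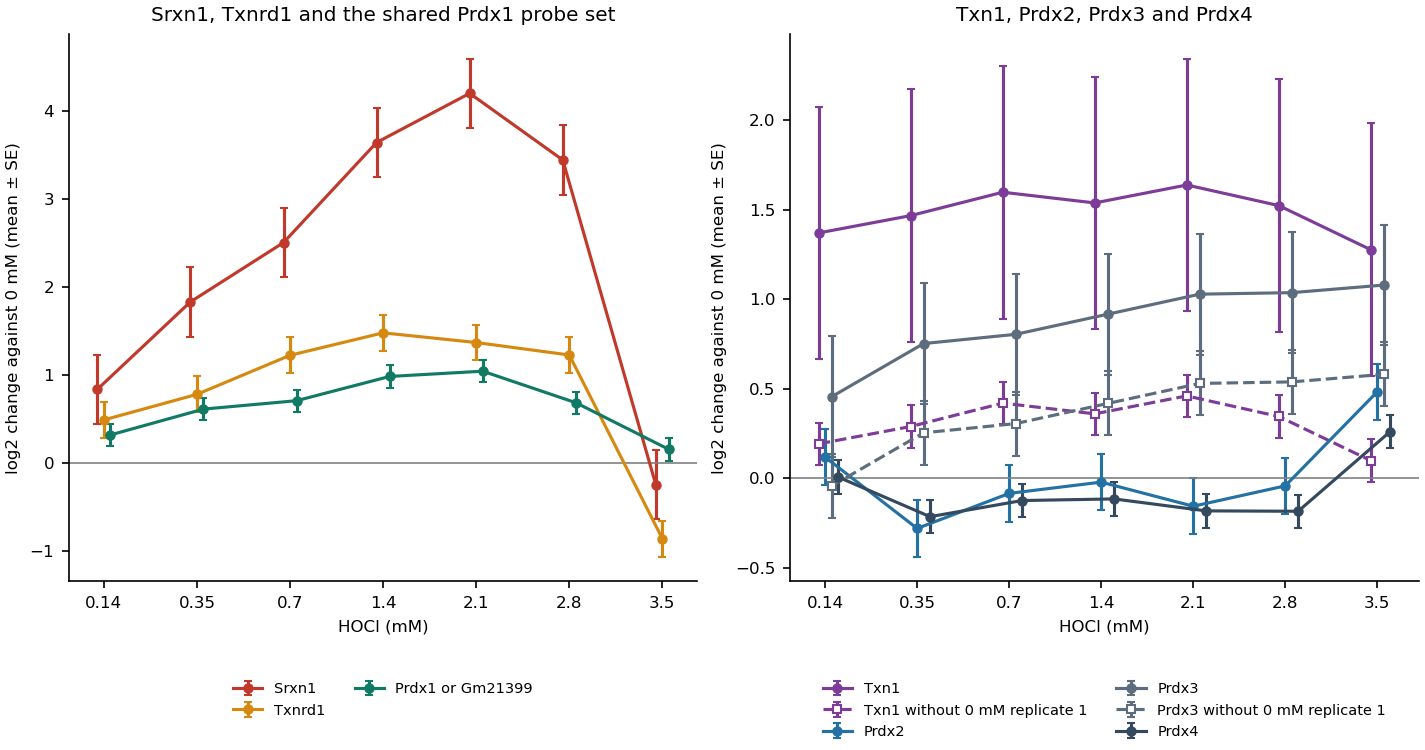
Log2 change against 0 mM (limma estimate, bars of 1 SE) of the brightest probe set of each member at each HOCl dose in mM, all 25 arrays in solid lines. Srxn1 reaches 4.21 at 2.1 mM and Txnrd1 1.48 at 1.4 mM before both fall at 3.5 mM. The dashed lines leave out the first 0 mM replicate, without which Txn1 drops from 1.64 to 0.46 and Prdx3 from 1.03 to 0.53 at 2.1 mM.

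Prdx2, the other abundant cytosolic peroxiredoxin, did not share that course. The untreated arrays gave 5.10, 5.94, 5.77 and 6.03 with the brighter probe set, those of 1.4 mM 5.82, 5.70 and 5.55, those of 2.8 mM 5.98, 5.52 and 5.51, and those of 3.5 mM 6.13, 6.21 and 6.24. The 3 arrays of 3.5 mM were the highest of all 25. No dose differed from 0 mM by the test, with 0.48 at 3.5 mM (SE 0.157, limma, adjusted p = 0.0576). Prdx2 was 0.53 higher at 3.5 than at 2.8 mM (adjusted p = 0.0479) and 0.50 higher than at 1.4 mM (adjusted p = 0.0474), and its F test gave an adjusted p of 0.0454. These 3 calls lay at the threshold and were lost without any of 20, 21 and 21 of the 25 arrays (adjusted p up to 0.209, 0.156 and 0.147), and the dimmer probe set had no call. Without the first untreated replicate, the lowest array, Prdx2 was lower at 0.35 mM (-0.48, adjusted p = 0.018) and 2.1 mM (-0.36, adjusted p = 0.0369), and lower at 0.35 than at 0.14 mM (-0.40, adjusted p = 0.0444). Without the first replicate of 2.8 mM the last step was 0.68 (adjusted p = 0.0116). The difference of 3.5 from 0 mM passed without that array (adjusted p = 0.0414), and without the second (0.56, 0.0454) or the fourth (0.59, 0.0264) of 0 mM.

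Prdx3, the mitochondrial peroxiredoxin, had 1 probe set. It gave 2.37, 4.21, 4.61 and 4.29 at 0 mM, 5.01, 4.85 and 4.83 at 2.1 mM, 5.12, 4.83 and 4.78 at 2.8 mM, and 5.27, 4.90 and 4.67 at 3.5 mM. The arrays of these 3 doses lay above all untreated arrays, of which the first was again the lowest. Prdx3 was called 1.03 higher at 2.1 mM (SE 0.337, limma, adjusted p = 0.0484) and 1.08 higher at 3.5 mM (adjusted p = 0.049), while 1.04 at 2.8 mM missed the threshold (adjusted p = 0.0502). Without the first untreated replicate the values fell to 0.53 at 2.1 mM (adjusted p = 0.0596), 0.54 at 2.8 mM (0.0613) and 0.58 at 3.5 mM (0.0479). The 2 calls were lost without any of 19 and 21 of the 25 arrays (adjusted p up to 0.144 and 0.171) and with the control level as a term (0.62 and 0.67, adjusted p = 0.641 and 0.446). The F test did not call the gene (adjusted p = 0.137), but did so without the first or the third untreated replicate (lowest adjusted p = 0.0444). Without the third untreated replicate 1.4 mM (1.16, adjusted p = 0.034) and 2.8 mM (1.28, 0.0148) were called too, and 2.8 mM also without the fourth of 0 mM (0.0484) or the third of 0.7 mM (0.0483).

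Prdx4, the peroxiredoxin of the endoplasmic reticulum, was highest at 3.5 mM by its brightest probe set, with 5.82, 5.83 and 5.80 there. The untreated arrays gave 5.57, 5.66, 5.53 and 5.45, those of 1.4 mM 5.44, 5.48 and 5.39, and those of 2.8 mM 5.61, 5.24 and 5.26. The arrays of 3.5 mM lay above all others. The difference from 0 mM was 0.26 (SE 0.0933, limma, adjusted p = 0.0843), that from 2.8 mM 0.44 (adjusted p = 0.00631) and that from 1.4 mM 0.38 (adjusted p = 0.0143). The step from 2.8 mM was lost without the second replicate of 2.8 mM (adjusted p = 0.0528), the difference from 1.4 mM without the third of 1.4 mM (0.0507) and the F test, with an adjusted p of 0.0146, without the second of 3.5 mM (0.0548). Without the first replicate of 2.8 mM the step was 0.56 (adjusted p = 0.000477), Prdx4 was lower at 2.8 than at 0 mM (-0.30, adjusted p = 0.0343), and the difference of 3.5 from 0 mM passed (0.0462).

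The probe sets of Prdx4 disagreed. The next brightest was 0.88 higher at 1.4 than at 0 mM (limma, adjusted p = 0.0423), where the brightest had -0.11, and its value at 3.5 against 1.4 mM was -0.29. None of the other 3 probe sets passed the F test (adjusted p of 0.203 to 0.567). Quantile normalization turned the small negative values of the brightest into calls at 0.35, 1.4, 2.1 and 2.8 mM (-0.27, -0.28, -0.34 and -0.33), so at the middle doses the direction of Prdx4 depended on the probe set, and its calls on the scaling.

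Counted per dose, 0 of the 6 member genes was called at 0.14 mM, where the test called 0.011% of all genes higher and 0% lower. There 2 members had an unadjusted p under 0.05, a limit for which the share of all genes was not counted. At 0.35 mM 2 were higher (2.12% of all genes) and 0 lower (5.56%), at 0.7 mM 2 and 0 (0.148% and 0.0165%), and at 1.4 mM 2 and 0 (3.85% and 5.06%). At 2.1 mM 3 were higher and 0 lower (7.32% and 8.2%), at 2.8 mM 2 and 0 (5.68% and 8.6%), and at 3.5 mM 1 and 1 (4.54% and 4.83%). Srxn1 and Txnrd1 accounted for the calls up to 2.8 mM, with Prdx3 at 2.1 mM. At 3.5 mM the calls were Prdx3, higher, and Txnrd1, lower. The median change of the 6 genes was 0.47, 0.77, 1.01, 1.20, 1.20, 1.13 and 0.37 from the lowest to the highest dose, against medians of all genes between -0.01 and 0.10. Without the first untreated replicate, in which Txn1 and Prdx3 were low, the median of the 6 was 0.10, 0.27, 0.36, 0.39, 0.50, 0.44 and 0.18 in the same order. These comparisons share the untreated arrays.

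Between neighbouring doses up to 2.8 mM no member gene was called. The background in these 5 steps was 1.39% higher and 2.64% lower from 0.14 to 0.35 mM, 0% and 0% in each of the next 3, and 0.033% and 0% from 2.1 to 2.8 mM. An unadjusted p under 0.05 was seen for 3, 0, 1, 0 and 0 members in these steps. The shares of all genes given here and above are for adjusted p, and none was counted for the unadjusted limit. From 2.8 to 3.5 mM 2 members rose, Prdx2 and Prdx4, and 2 fell, Srxn1 and Txnrd1 (8.81% and 5.33% of all genes), and from 1.4 to 3.5 mM it was the same 4 (9.86% and 7.18%). Replicate 1 of 2.8 mM lay nearer than its fellows to the 3.5 mM arrays in each of these 4 genes. The Actb 3' minus 5' differences at 3.5 mM were 0.43, 0.68 and 0.28, against a range of 0.12 to 0.68 over all arrays, and their part in the last step was not tested.

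Among 28 other genes of the thiol redox system, taken from lists by function, 13 passed the F test (28% of all genes did). They were 5 of 9 thioredoxin partners, 3 of 5 genes of the glutaredoxin system, 1 of 4 methionine sulfoxide reductases, 1 of 4 thioredoxin-dependent clients and 3 of 6 genes of selenoprotein synthesis. Against 0 mM the numbers called higher and lower were 0 and 0 at 0.14 mM (0.011% and 0% of all genes), 1 and 2 at 0.35 mM (2.12% and 5.56%), and 1 and 0 at 0.7 mM (0.148% and 0.0165%). They were 2 and 2 at 1.4 mM (3.85% and 5.06%), 3 and 4 at 2.1 mM (7.32% and 8.2%), 2 and 4 at 2.8 mM (5.68% and 8.6%), and 2 and 2 at 3.5 mM (4.54% and 4.83%). At 0.14 mM 2 of the list genes had an unadjusted p under 0.05, a limit for which the share of all genes was not counted. The median of the 28 stayed between -0.03 and 0.22. In the following, of each list the 3 genes with the lowest F test p are named.

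In the thioredoxin partner list, Txndc9, a thioredoxin domain protein, was 1.06 higher at 1.4 mM (SE 0.197, limma, adjusted p = 0.00378), 1.06 at 2.1 mM (0.00175) and 0.81 at 2.8 mM (0.0111), the last lost without the second or the third replicate of 2.8 mM (up to 0.0659). With the control level as a term these were 0.54, 0.55 and 0.29 and not called. With its probe set of largest variance Txndc9 was not called at 1.4 mM (0.89, limma, adjusted p = 0.0765) or 2.1 mM (0.90, 0.0538). Nxn, nucleoredoxin, was 0.50 lower at 0.35 mM (-0.50, adjusted p = 0.0378) and at 2.1 mM (-0.50, 0.0215), calls lost without any of 6 and 5 arrays, the first, the second and the fourth untreated ones among them. Txnrd2, the mitochondrial thioredoxin reductase, was 0.31 higher at 3.5 mM (adjusted p = 0.0364, lost without any of 5 arrays of 0 or 3.5 mM, up to 0.187) and 0.42 higher there than at 2.8 mM (0.00823). With its probe set of largest variance Txnrd2 was not called at 3.5 mM (0.31, limma, adjusted p = 0.32) or in the F test (0.137). Outside the rule, and chosen after their values were seen, Txndc12 was called at 3.5 mM (0.53, adjusted p = 0.0483) and Txn2, mitochondrial thioredoxin, at 2.8 mM (0.58, adjusted p = 0.0345). In the F test Txndc12 passed (limma, adjusted p = 0.0105) and Txn2 did not (0.117). Txnip, of the same list and also outside the rule, passed it (0.0255). Single values of these genes were not followed under the alternatives or on leaving out arrays.

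In the glutaredoxin system, which reduces thiols with glutathione, Gsr, glutathione reductase, was 1.52 higher at 0.7 mM (SE 0.284, limma, adjusted p = 0.0318), 1.20 at 1.4 mM (0.0144) and 1.36 at 2.1 mM (0.00392). The call at 0.7 mM was lost without any of 7 arrays (up to 0.244) and the one at 1.4 mM without the second replicate of 1.4 mM (0.0783). Gsr had 1.95 at 1.4 mM with the control level as a term (adjusted p = 0.0927), and the call at 2.1 mM was kept. Glrx, glutaredoxin, was 2.59 higher at 0.35 mM (SE 0.582, adjusted p = 0.0148, lost without the second replicate of 0.35 mM, 0.0604) and 1.88 at 2.1 mM (0.0364, lost without any of 6 arrays of 0 or 2.1 mM, up to 0.112). At 2.1 mM, where the control level differs from 0 mM, Glrx had 0.22 with that level as a term (adjusted p = 0.93). Its arrays split at 0.7 mM (3.52, 4.23 and 6.73) and at 1.4 mM (4.25, 3.69 and 6.34). At 0.7 mM the highest was the array of high control level, whereas all arrays of 1.4 mM were of that level. At 0.35 mM Glrx had 6.24 and 6.25 at the low level and 6.72 at the high one. Glrx3, an iron-sulfur cluster glutaredoxin, was lower at 3.5 mM (-0.74, adjusted p = 0.0284, lost without any of 5 arrays of 0 or 3.5 mM, up to 0.0857).

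Txnrd1 is a selenoprotein, and of the 6 genes for making selenoproteins none was called higher at any dose against 0 mM, though after quantile normalization Pstk was (0.57 at 3.5 mM, adjusted p = 0.0428). Eefsec, the elongation factor that delivers selenocysteine, was lower at 1.4 mM (-1.15, SE 0.235, limma, adjusted p = 0.00637), 2.1 mM (-1.22, 0.00221) and 2.8 mM (-1.11, 0.00475), without loss of a call on leaving out any single array. Sepsecs, which makes selenocysteine on its tRNA, was lower at 0.35 mM (-0.72, adjusted p = 0.0225), 2.1 mM (-0.64, 0.0207) and 2.8 mM (-0.86, 0.00395), the first lost without any of 4 arrays (up to 0.098) and the second without any of 5 (up to 0.0815). Pstk, the kinase that acts before it, was not called against 0 mM (0.53 at 3.5 mM, adjusted p = 0.0757). Its arrays of 0.35 mM (1.80, 1.69 and 1.98) lay below all untreated arrays, the lowest of which gave 2.15. Within the low control level Pstk was called lower at 0.35 mM (-0.56, limma, adjusted p = 0.0328). With the control level as a term Eefsec at 1.4, 2.1 and 2.8 mM had -0.79, -0.86 and -0.74 and was not called, nor was Sepsecs at 2.1 mM (-0.47) or 2.8 mM (-0.69).

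Msrb1, a selenoprotein that repairs oxidised methionine, was lower at 1.4 mM (-0.69, SE 0.138, limma, adjusted p = 0.00568), 2.1 mM (-0.60, 0.00717) and 2.8 mM (-0.48, 0.0294), and 0.62 higher at 3.5 than at 2.8 mM (0.00901). The call at 2.8 mM was lost without any of 5 arrays of 0 or 2.8 mM (up to 0.174), and with the control level as a term none of the 3 calls against 0 mM remained (-0.57, -0.47 and -0.35). Msrb3 and Msra, of the same list, were not called against 0 mM. Map3k5 (ASK1), a kinase held inactive by reduced thioredoxin, was lower at 2.8 mM (-1.60, SE 0.229, adjusted p = 0.000284) and at 3.5 mM (-0.74, 0.0479). The latter was lost without any of 19 arrays (up to 0.127). Rrm2b and Rrm2, subunits of ribonucleotide reductase, an enzyme that draws electrons from thioredoxin, were not called by their brightest probe sets. With the probe set of largest variance Rrm2b was called 1.21 higher at 1.4 mM (limma, adjusted p = 0.0287) and 1.02 higher at 2.1 mM (0.0436). After quantile normalization its brightest probe set passed the F test (adjusted p = 0.046).

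**Figure D4:**
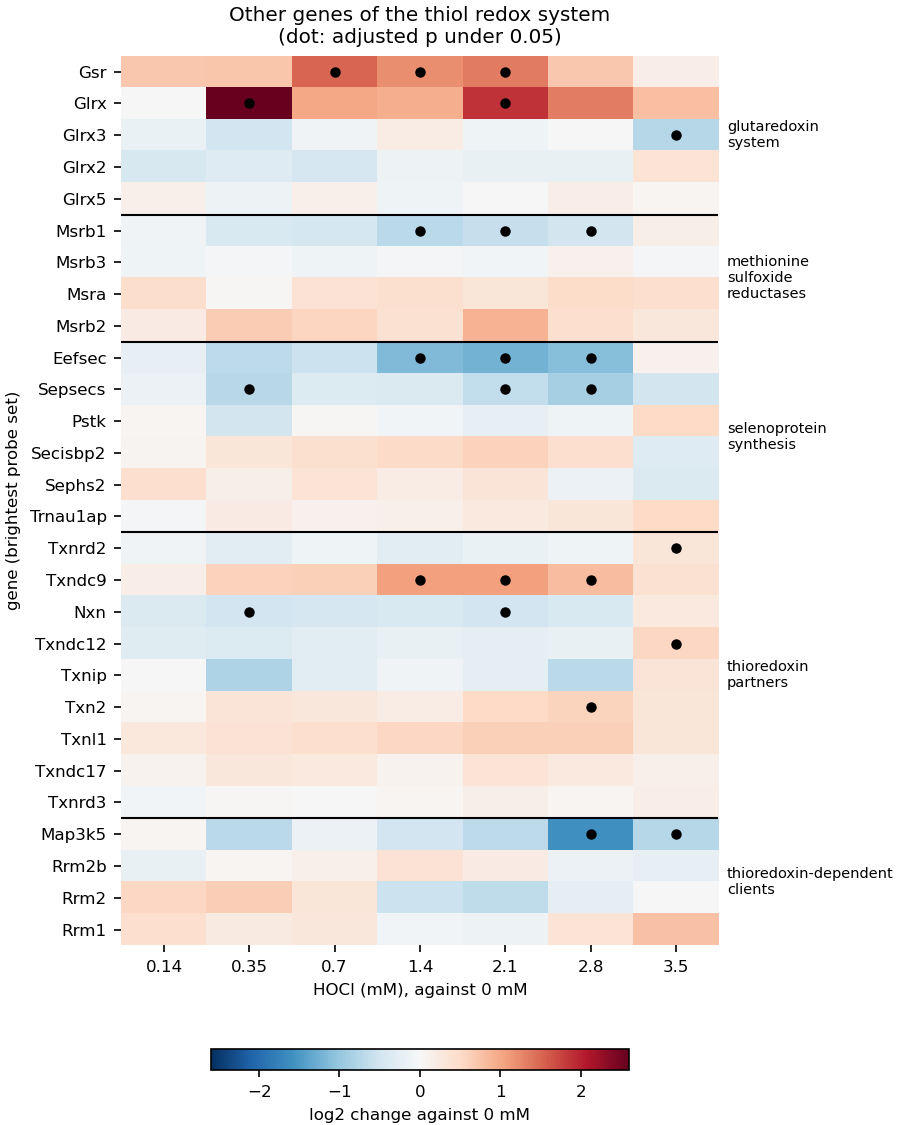
Log2 change against 0 mM (colour, red higher and blue lower) of the brightest probe set of 28 other genes of the thiol redox system at 7 HOCl doses in mM, in 5 lists, with a dot where the adjusted p is under 0.05. Gsr and Txndc9 carry dots on the higher side at 1.4 and 2.1 mM, and Eefsec, Msrb1 and Sepsecs on the lower side at 2.1 and 2.8 mM.

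Over the 25 arrays, which share dose groups and scaling, the genes outside the members with the pattern most like Srxn1 were Procr, the endothelial protein C receptor (Pearson r = 0.956), Kif3c, a kinesin (0.946), and Ptpn14, a tyrosine phosphatase (0.945). For Txnrd1 they were Gclm, the modifier subunit of glutamate cysteine ligase (0.929), Ppm1b, a protein phosphatase (0.928), and Pak2, a kinase (0.923). Prdx4 was most like Hadhb, a mitochondrial fatty acid oxidation enzyme (0.937), Bcs1l, a complex III assembly factor (0.916), and Kiz, a centrosomal protein (0.915). About the dose means the correlations were 0.72, 0.78 and 0.74 for Srxn1, 0.64, 0.57 and 0.40 for Txnrd1, and 0.93, 0.77 and 0.85 for Prdx4, in the same order. They are descriptions of these arrays.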

How the data were processed

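Each sample was hybridized to 1 Affymetrix whole-genome mouse expression chip. The authors deposited log2 signals, 1 per probe set, made with RMA, per the submitters' processing notes, and read with Array Assist, per the labels; no version was found in these sources. Every array has a median of 0, and base 2 was inferred from a span of 10.8 to 11.0 per array, on which all folds rest. RMA pulls low signals together, so changes of dim probe sets can be understated.

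Of 45101 probe sets 64 controls were left out and 45037 tested. Gene names came from the platform annotation: 34945 probe sets had 1 symbol, 932 several and 9160 none. The brightest probe set with 1 symbol stood for its gene. With limma 3.58.1 (R 4.3.3), 1 mean per dose was estimated from the 25 arrays together (17 residual and 2.99 prior degrees of freedom), two-sided, with Benjamini-Hochberg adjustment over all probe sets and a threshold of 0.05. The script was tested on simulated data. The number of arrays limits the precision.

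Alternatives were quantile normalization, a trended and robust prior, leaving out dim probe sets, fitting only the groups compared, the replicate number as a block, the probe set of largest variance, the level of the poly-A control transcripts as a term or within it, and leaving out each array. The comparison within the high control level was added after seeing the data. The members and lists were chosen with earlier results of these data known. Named genes were all members, from each list the 3 genes of lowest p in the F test, and the 3 genes most correlated with each of the 3 members of lowest p.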

Additional observations from a re-analysis of the deposited data

Results flagged for a closer look

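Within the 4 untreated arrays, 22 genes named here were examined for 1 array far from the rest, and chance marks about 1 in 20 such groups. Txn1 had a gap between its lowest untreated array and the next of 0.905 of the group's whole range, above the 95% critical value of Dixon's test for 4 samples. Nxn had 0.892. Prdx3 came next with 0.82, below that value. In Txn1 and Prdx3 the array was the first untreated replicate, which also held the 282 probe sets far below all other arrays, and in Nxn it was the third.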

How the results depend on the processing

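Of 224 single-gene values, 3 (of 216) changed side of the threshold or direction without dim probe sets, 6 with the trended prior, 13 after quantile normalization, 13 with the probe set of largest variance, 22 with the replicate block, 23 (of 203) when only the groups compared were fitted, 34 with the control level as a term, 5 of 80 within its low level, 0 of 28 within its high level, and 262 of 5600 on leaving out an array. The calls of Srxn1 at 1.4, 2.1 and 2.8 mM against 0 mM, of Srxn1 and Txnrd1 at 3.5 against 1.4 and 2.8 mM, and of both in the F test held under all of these that include them. The cause of a change was not tested. Counts that moved are given as higher or lower genes against 0 mM unless another dose is named, first for member genes and then for the 28 list genes.

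Quantile normalization gave 1 lower member at 0.35, 1.4, 2.1 and 2.8 mM, 0 higher members at 3.5 mM, 1 lower list gene at 0.35 mM, 0 higher list genes at 0.7 mM and 2 clients in the F test. Without dim probe sets, with fewer tests, it was 2 higher members at 3.5 mM and 5 higher list genes at 2.1 mM. The trended and robust prior gave 1 higher member at 3.5 against 2.8 and against 1.4 mM, and 0 higher and 1 lower list gene at 3.5 mM. Fitting only the groups compared, with fewer samples, gave 0 higher members at 0.7 mM (Srxn1 adjusted p = 0.0932, Txnrd1 0.226), 0 higher and 0 lower at 3.5 mM, 0 higher at 3.5 against 2.8 mM and 1 higher at 0.35 against 0.14 mM. There the list genes were 0 lower at 0.35 mM, 0 higher at 0.7 mM, 1 higher and 1 lower at 1.4 and at 2.8 mM, and 0 and 0 at 3.5 mM. With the probe set of largest variance it was 1 higher member at 0.35 and 0.7 mM, 0 lower at 3.5 mM, 1 higher at 3.5 against 2.8 and against 1.4 mM, 1 higher list gene at 3.5 mM and 3 thioredoxin partners in the F test. That setting turned Prdx4 at 1.4 mM to 0.88 and at 3.5 against 1.4 mM to -0.29, since another probe set stands for the gene.

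With the control level as a term it was 1 higher member at 1.4, 2.1 and 2.8 mM, and 0 higher and 0 lower at 3.5 mM. List genes were then 2 higher at 0.35 mM, 0 and 0 at 1.4 mM, 1 higher and 0 lower at 2.1 mM, 0 higher and 1 lower at 2.8 mM, and 0 and 0 at 3.5 mM. Within the low level it was 0 higher list genes at 0.7 mM.

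Replicate numbers did not pair the arrays, with 19 of 84 same-number correlations over 0.1 (median -0.03) and 5 of 24 arrays correlating best with their own number. Replicate 4 existed only at 0 mM, so the block fit also left that array out of the comparisons with 0 mM. In that fit Txnrd1 had 0.769 at 0.35 mM and 1.214 at 0.7 mM, the same values as without 0 mM replicate 4. With the replicate block it was 0 higher members at 0.35 and 0.7 mM, 2 at 3.5 mM, and 1 at 3.5 against 2.8 and against 1.4 mM. In that block fit the list genes were 0 lower at 0.35 mM, 0 higher at 0.7 mM, 1 higher at 1.4 mM, 2 lower at 2.1 mM, 1 higher at 2.8 mM, and 1 higher and 0 lower at 3.5 mM.

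Leaving out 1 array at a time, higher members ranged from 0 to 2 at 0.35 and 0.7 mM, 2 to 3 at 1.4 and 2.8 mM, 2 to 4 at 2.1 mM, 0 to 2 at 3.5 mM and 0 to 2 at 3.5 against 2.8 and against 1.4 mM. Lower members ranged from 0 to 1 at 0.35, 2.1, 2.8 and 3.5 mM and at 0.35 against 0.14 mM, and members in the F test from 2 to 6. Higher list genes ranged from 0 to 2 at 0.35 mM, 0 to 1 at 0.7 mM, 1 to 2 at 1.4 mM, 2 to 5 at 2.1 mM, 0 to 4 at 2.8 mM and 0 to 3 at 3.5 mM. Lower list genes ranged from 0 to 6 at 0.35 mM, 0 to 1 at 0.7 mM, 2 to 3 at 1.4 mM, 2 to 6 at 2.1 mM, 3 to 6 at 2.8 mM and 0 to 3 at 3.5 mM. In the F test 3 to 6 thioredoxin partners, 1 to 4 glutaredoxin genes and 2 to 5 selenoprotein synthesis genes passed. A dim probe set such as that of Nxn has little signal over background, and the shared probe sets cannot assign a change to Prdx1.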
